A study of Zea mays with 24 samples.

Results

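The heat response of the maize cytoline cytTC221 was set against the mean heat response of both other lines of the study, TC243 and cytTC248, gene by gene. For each gene the contrast is the change from control to stress in cytTC221 minus the mean of the same change in TC243 and in cytTC248, on the log2 scale, so a positive value means that the signal after heat, relative to the line's own control, was higher in cytTC221 than in the other lines. The contrast used all 24 arrays, with the groups taken from the sample titles, and covered 48216 of the 107027 gene IDs on the array, those with a probe that cleared the background on every array of 1 or more of the 6 groups. The groups were heat-stressed and control seedlings of cytTC221, TC243 and cytTC248, with 4 arrays in each. TC243 is the nucleus donor. The cytolines, made by repeated backcrossing with TC243 as pollen parent, carry that nucleus in the cytoplasm of TC221 (cytTC221) or of T248 (cytTC248, written cytT248 in the study's text), so the 3 lines share a nuclear genome and differ in the origin of the cytoplasm. Stressed plants grew for 20 days at 26 °C in 16 h of light and 20 °C in 8 h of dark and were then kept at 40 °C for 24 h. Control plants grew for 21 days without the heat. Leaves and stems of seedlings at the 3-leaf stage were harvested together. The methods name 3 seedlings per line and 4 replicates per group without saying how the replicates were drawn from the plants, so the p-values below measure the spread between these samples, which may be technical. In RNA from whole seedlings, fewer cells of a type and less RNA per cell cannot be told apart.

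Most proteins of mitochondria and plastids are coded in the nucleus, made in the cytosol and imported, and the state of the organelles in turn affects the transcription of nuclear genes, which is known as retrograde signalling. A line with a foreign cytoplasm therefore shows how one nucleus behaves in another cytoplasm. Heat induces heat shock proteins, the chaperones that hold and refold damaged proteins, under control of heat stress transcription factors, and in many plants alternative oxidase, which lets electrons bypass part of the mitochondrial respiratory chain. Genes for light harvesting and carbon fixation commonly lose transcript under strong heat.

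Each group had between 36.9% and 43.1% of its spots well above background, and the ranges of all 6 groups overlapped. Replicates of a group correlated at 0.987 to 0.996 across genes, and the median SD of a gene within a group was 0.10 to 0.11 on the log2 scale. The first principal component held 87.4% of the variance and separated stress from control arrays in all 3 lines. On the second, with 5.07%, the stress arrays of cytTC221 scored 67.3 to 77.4, those of TC243 -57.7 to -51.8 and those of cytTC248 -13.9 to -9.78, while control arrays of cytTC221 lay at 2.18 to 4.96. The 24 arrays lay on 6 slides, none of which held all groups. Within a slide, control arrays of cytTC221 and TC243 stood in odd positions and stress arrays in even ones, and the reverse was true of cytTC248. A difference between odd and even positions would thus enter the contrast and the comparison with cytTC248 and cannot be told apart from them, whereas it cancels in the comparison of cytTC221 with TC243. For this reason a gene is called distinct here only when the contrast and the separate comparisons with both lines all passed the threshold in one direction. The threshold was a Benjamini-Hochberg adjusted p under 0.01 in 1 limma fit of all groups, adjusted over all 48216 genes.

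The heat responses of the lines were broadly alike. Across genes, which are not independent replicates, the response of cytTC221 correlated with the mean response of the others at r = 0.93 with a slope of 0.87, and the SD of the response was 1.39 in cytTC221, 1.51 in TC243 and 1.48 in cytTC248. Within this common response 18807 genes (39%) had a contrast past the threshold, 8773 of them higher in cytTC221 (18.2%) and 10034 lower (20.8%). Against TC243 alone 18264 genes were called (37.9%), with 8267 higher (17.1%) and 9997 lower (20.7%), and against cytTC248 alone 15219 (31.6%), with 7308 higher (15.2%) and 7911 lower (16.4%). The responses of cytTC248 and TC243, set against each other in the same fit, differed for 6781 genes (14.1%), 2558 of them higher in cytTC248 (5.31%) and 4223 lower (8.76%). These comparisons share arrays and are not independent of each other. Genes distinct from both lines numbered 11163 (23.2%), of which 4894 were higher (10.2%) and 6269 lower (13%). Most differences were moderate, with a median contrast of 0.62 among the distinct higher genes and -0.89 among the distinct lower genes, beside a median SE of 0.10. A difference of more than 1 log2 unit was found for 606 distinct higher and 2593 distinct lower genes.

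The balance of higher and lower calls depended on how the arrays were scaled. In the quantile normalised data 46.6% of the contrast calls were higher. The share was 26.3% with each array set to its 75th percentile over spots above background on all arrays, 55.4% with that percentile over all maize spots, 64.2% with arrays centred on their median gene, 36.2% with the scanner software's own processed signal, 54.6% with only probes above background on all arrays and 36.1% from differences within slides alone. The median contrast of all genes was 0.00 in the quantile data, and it shifted to -0.18, 0.04, 0.11 and -0.13 in the first 4 of these settings. Across 6 other scalings and background corrections, 4004 of the 8773 higher calls and 6326 of the 10034 lower calls were kept in all, and 1845 of the higher and 3848 of the lower distinct calls.

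**Figure D1:**
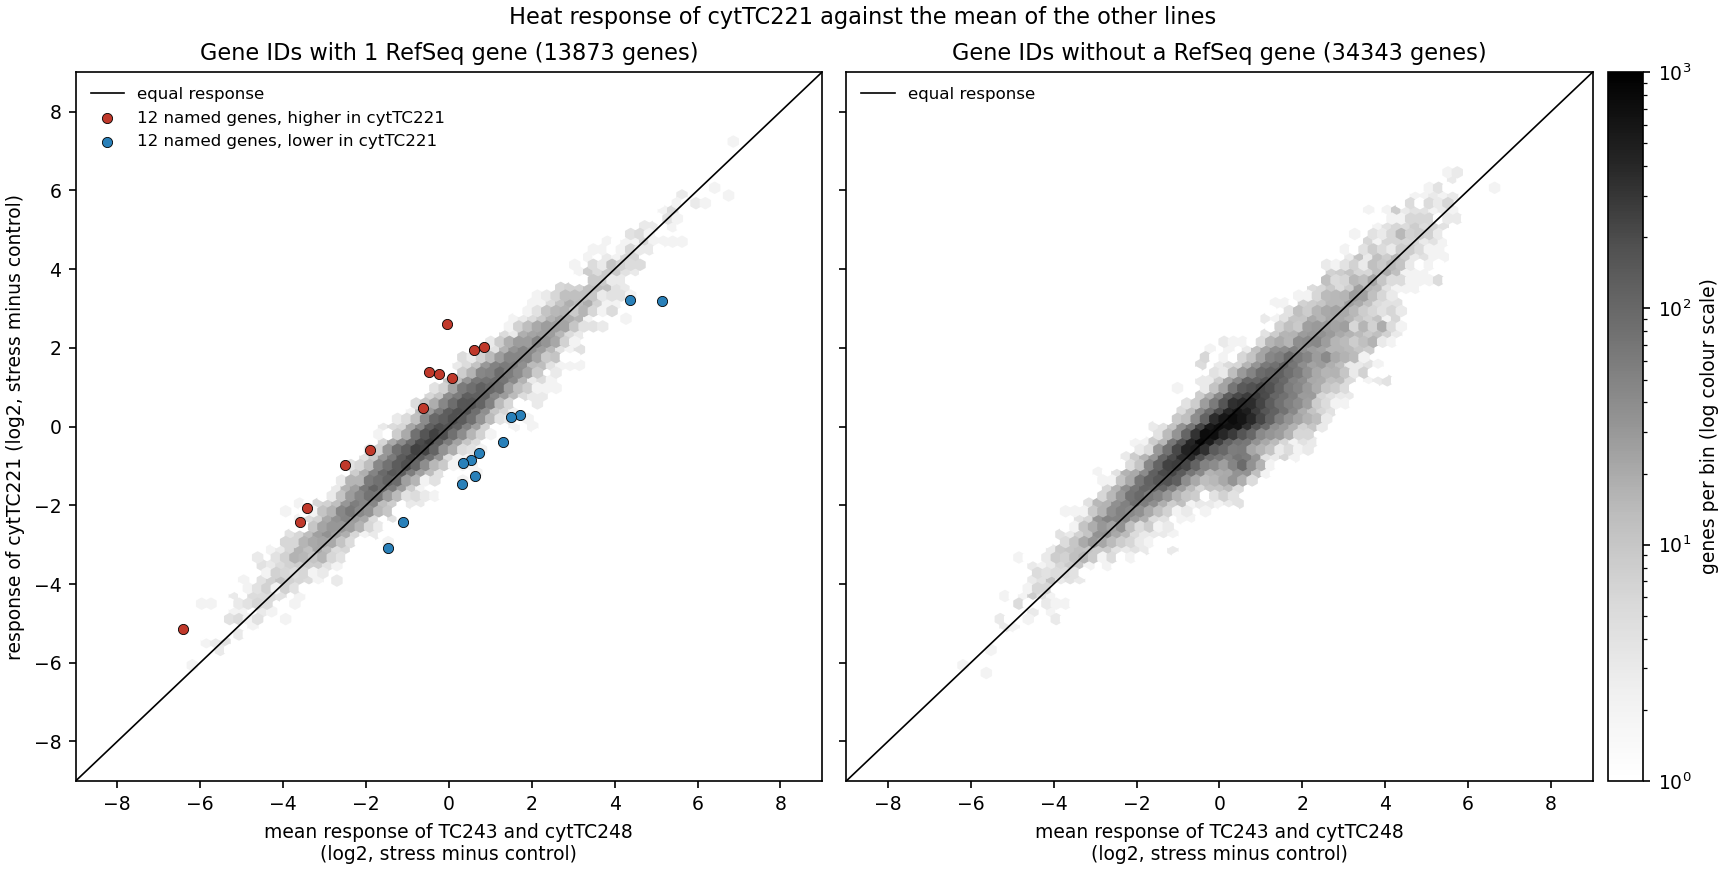
Mean heat response of cytTC221 (y axis, log2, stress minus control) against the mean response of TC243 and cytTC248 (x axis) for genes with 1 RefSeq gene (left, 13873 genes) and for gene IDs without one (right, 34343 genes), shaded by the number of genes per bin on a log scale, with the line of equal response. The red and blue points are the 12 named genes with the largest positive and the 12 with the largest negative contrast, and in the right panel a body of genes lies below the line at positive values of the x axis.

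Genes higher in cytTC221 were most often genes that fell less. Of the 4894 distinct higher genes, 2039 (41.7%) fell in all 3 lines, 1215 (24.8%) rose in all, 592 fell in both other lines without a call in cytTC221, and 404 rose in cytTC221 alone without a call elsewhere. Opposite calls, a rise in cytTC221 and a fall in both others, were found for 226 genes (4.62%). Among the 6269 distinct lower genes, 2483 (39.6%) rose in all lines but less in cytTC221, and 1760 (28.1%) rose in both other lines without a call in cytTC221. A further 608 (9.7%) fell in cytTC221 and rose in both others, 496 fell in all 3 lines and 350 fell in cytTC221 alone. Tested one by one, the heat responses were called for 74.7% of the genes in cytTC221, 80.6% in TC243 and 80.4% in cytTC248, and for 86.6% in the mean of TC243 and cytTC248, in which 45.5% rose and 41.1% fell. In single lines 17365 genes rose (36%) and 18638 fell (38.7%) in cytTC221, against 20331 (42.2%) and 18544 (38.5%) in TC243 and 20290 (42.1%) and 18498 (38.4%) in cytTC248.

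A contrast of responses can come from the heated plants, from the controls or from both. Set against the mean of the other lines, the heated cytTC221 plants differed for 23170 genes (48.1%), with 10720 higher (22.2%) and 12450 lower (25.8%), and the unheated cytTC221 plants for 5862 genes (12.2%), with 2866 higher (5.94%) and 2996 lower (6.21%). Of the distinct higher genes, 3878 (79.2%) were higher in cytTC221 on the stress arrays with no call of the opposite sign on the control arrays, 561 were higher on the stress and lower on the control arrays, and 423 (8.64%) were lower on the control arrays only. The distinct lower genes divided in a like way, into 5061 (80.7%), 720 and 471 (7.51%). The median difference of the distinct higher genes was 0.52 on the stress arrays and -0.07 on the control arrays, and that of the distinct lower genes was -0.74 on the stress arrays and 0.05 on the control arrays.

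The higher and the lower genes differed in what the gene annotation holds of them. The array carries gene IDs of an older maize annotation, and 28.8% of the tested IDs matched exactly 1 gene of the current RefSeq annotation. This share was 50.3% among the distinct higher genes and 13.3% among the distinct lower genes, and it was 6.02% among the distinct lower genes with a contrast under -1. Of the 608 genes that fell in cytTC221 and rose in both others, 27 had a RefSeq gene (4.44%). With the genes divided by mean signal into 5 bins of equal size, the order was the same in each. In the brightest bin 58.8% of the distinct higher and 37% of the distinct lower genes had a match, with 44.1% of all genes there, and in the dimmest bin 31.3% and 6.43%, with 14.2% of all. Split the other way, genes with a RefSeq match had 4043 higher and 1679 lower contrast calls and a median contrast of 0.12, and IDs without one had 4730 higher and 8355 lower calls and a median of -0.06. Higher calls were 70.7% of all calls among matched genes and 36.1% among the others. Matched genes kept the larger share of higher calls under all 6 other scalings, from 51% against 17.7% with the 75th percentile over spots above background to 88.5% against 51.8% with centred arrays. Gene names exist only for matched genes, so the named genes below come from the part of the data where higher calls prevailed: of 1934 tested genes with a name, 492 were called higher (25.4%) and 306 lower (15.8%).

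Among the genes that met the rule for naming, the largest positive contrast was that of GNAT21 (GRMZM2G131618), a member of the GNAT acetyltransferase family. GNAT21 had a normalised log2 signal of 9.54, 9.75, 9.81 and 9.59 on the stress arrays of cytTC221, against 7.18, 6.96, 7.05 and 7.03 on its control arrays. TC243 gave 6.71, 7.07, 7.06 and 6.81 under stress, against 6.95, 6.88, 7.11 and 6.97 in the control group, and in cytTC248 the signal was 6.90, 7.10, 7.09 and 6.96, against 6.86, 7.12, 6.99 and 7.11. The signal stood near 7 in 20 arrays and was high only on the 4 stress arrays of cytTC221. The contrast was 2.65 ± 0.11 (SE, as for all contrasts below), adjusted p = 2.37e-14, which is a 6.28 times larger stress to control ratio, with differences of 2.68 against TC243 (adjusted p = 1.79e-13) and 2.62 against cytTC248 (adjusted p = 6.6e-13). Neither other line had a response past the threshold. PPCK4 (GRMZM2G049541), a phosphoenolpyruvate carboxylase kinase, which activates the first enzyme of C4 carbon fixation, responded in opposite directions in cytTC221 and TC243. PPCK4 had a normalised log2 signal of 10.80, 10.90, 10.99 and 10.77 on the stress arrays of cytTC221, against 9.58, 9.36, 9.72 and 9.24 on its control arrays. TC243 gave 9.26, 9.31, 9.40 and 9.32 under stress, against 10.59, 10.53, 10.45 and 10.40 in the control group, and in cytTC248 the signal was 10.10, 9.98, 10.17 and 10.12, against 9.88, 9.56, 10.05 and 9.95. It rose in cytTC221, fell in TC243 and had a difference of 0.23 in cytTC248 without a call (adjusted p = 0.0307), with a contrast of 1.85 ± 0.12, adjusted p = 2.6e-11. Part of this came from the controls, in which cytTC221 stood lower by a difference of -0.70 ± 0.08 (adjusted p = 1.21e-06).

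**Figure D2:**
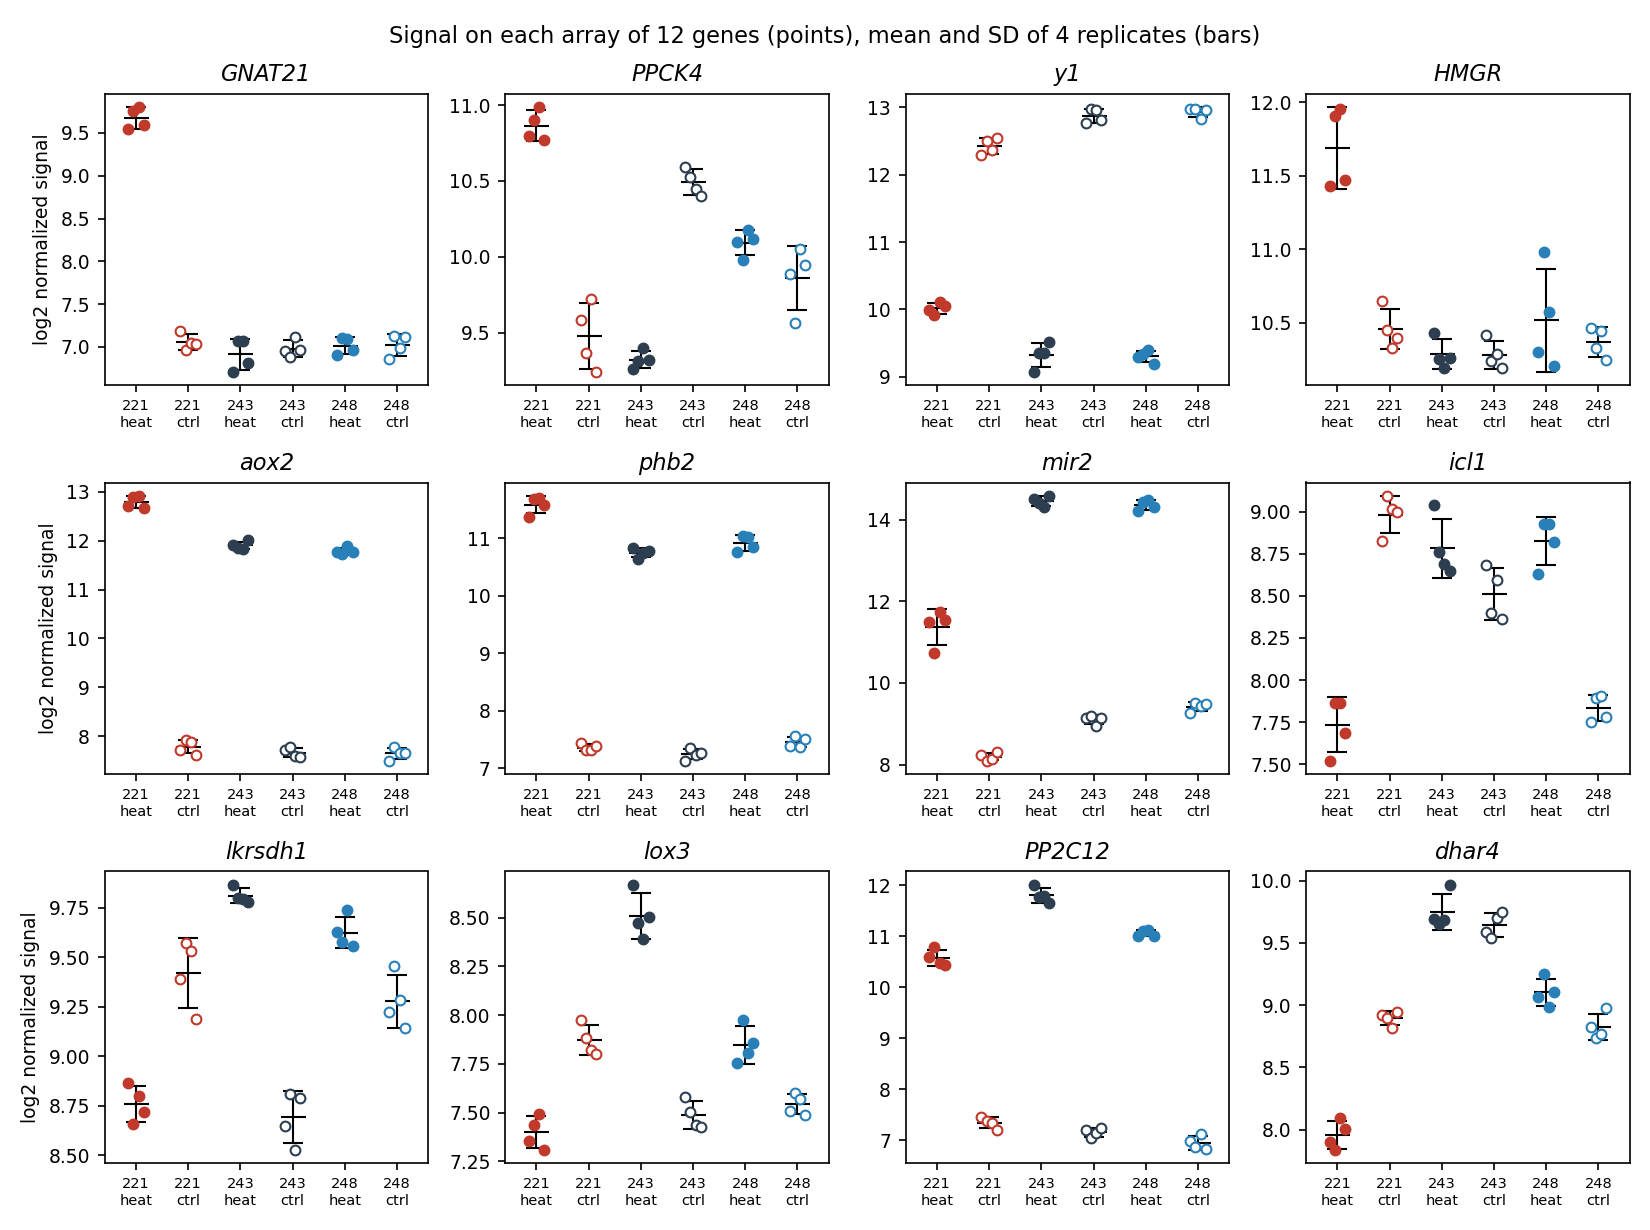
Normalised log2 signal of 12 genes on every array (y axes, each panel with its own range), with heated and control cytTC221 on the left, then TC243 and cytTC248, filled points for stress and open points for control arrays, and the mean and SD of 4 replicates as bars. In the GNAT21 panel only the heated cytTC221 arrays leave the level near 7, and in the mir2 panel they lie between all control arrays and the heated arrays of the other lines.

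The other named genes with the largest positive contrasts included the enzyme genes y1, pho1, INO1 and glu2. Phytoene synthase (y1, GRMZM2G300348), which makes the first carotenoid and is the gene behind yellow kernels, fell in all lines. It had a normalised log2 signal of 9.99, 9.92, 10.10 and 10.05 on the stress arrays of cytTC221, against 12.30, 12.51, 12.37 and 12.55 on its control arrays. TC243 gave 9.08, 9.35, 9.36 and 9.51 under stress, against 12.77, 12.98, 12.96 and 12.81 in the control group, and in cytTC248 the signal was 9.30, 9.34, 9.39 and 9.19, against 12.98, 12.97, 12.83 and 12.96. Heated cytTC221 lay above all other heated arrays and its controls below all other controls, and the contrast was 1.18 ± 0.10, adjusted p = 1.62e-09. The plastid starch phosphorylase pho1 (GRMZM2G074158) rose more in cytTC221, with stress values relative to the control mean of 2.000, 2.001, 1.97 and 1.82 in cytTC221, against 0.68, 0.48, 0.59 and 0.63 in TC243 and 0.56, 0.67, 0.67 and 0.62 in cytTC248 (contrast 1.34 ± 0.10, adjusted p = 2.77e-10). Its unheated level in cytTC221 was lower than in the others, by a difference of -0.93 ± 0.07 (adjusted p = 7.65e-10), and its heated level higher, by 0.41 ± 0.07 (adjusted p = 3.2e-05). Myo-inositol-phosphate synthase (INO1, GRMZM2G155242) fell less, with -2.04, -2.002, -2.27 and -1.98 in cytTC221, against -3.29, -3.14, -3.20 and -3.24 in TC243 and -3.68, -3.61, -3.64 and -3.50 in cytTC248 (contrast 1.34 ± 0.09, adjusted p = 9.65e-11), again with a lower control level, by a difference of -0.91 ± 0.07 (adjusted p = 3.72e-10). The beta-glucosidase gene glu2 (GRMZM2G008247) had one of the steepest falls, at -5.15 in cytTC221, against -6.66 in TC243 and -6.15 in cytTC248 on average, with a contrast of 1.25 ± 0.13, adjusted p = 6.08e-08.

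HMGR (GRMZM2G393337), HMG-CoA reductase of the cytosolic isoprenoid pathway, rose in cytTC221 with stress values relative to the control mean of 0.97, 1.45, 1.497 and 1.01, against 0.15, -0.03, -0.09 and -0.02 in TC243 and -0.07, 0.61, 0.21 and -0.16 in cytTC248 (contrast 1.16 ± 0.17, adjusted p = 4.9e-06). Its replicates divided by array position. The cytTC221 stress arrays in position 2 of a slide read 11.43 and 11.47, and those in position 4 read 11.91 and 11.96, yet the lowest of them lay above all heated arrays of the other lines. The uroporphyrinogen decarboxylase gene les22 (GRMZM2G044074), of the porphyrin branch that leads to chlorophyll and heme, rose in all lines, at 2.01 in cytTC221, against 0.77 in TC243 and 0.94 in cytTC248, with a contrast of 1.16 ± 0.12, adjusted p = 4.85e-08. Among regulators, the cytokinin response regulator crr2 (GRMZM2G392101) fell less, with -1.17, -0.90, -0.80 and -1.04 in cytTC221, against -1.94, -2.22, -2.36 and -2.17 in TC243 and -3.09, -2.82, -2.60 and -2.80 in cytTC248 (contrast 1.52 ± 0.11, adjusted p = 3.87e-10). The CONSTANS-like gene COL10 (GRMZM2G012717) fell by 0.59 in cytTC221, against falls of 2.28 in TC243 and 1.54 in cytTC248 (contrast 1.32 ± 0.08, adjusted p = 5.44e-12). Hm2 (GRMZM2G131243), related to the maize reductase that disarms a fungal toxin, rose in cytTC221 with 1.19, 1.52, 1.49 and 1.11, against 0.11, 0.13, -0.15 and 0.05 in TC243 and -0.57, -0.39, -0.40 and -0.65 in cytTC248 (contrast 1.56 ± 0.12, adjusted p = 4.93e-10). The control signal of Hm2 in cytTC221 averaged 6.76 ± 0.17, lower than the 7.65 ± 0.11 of TC243 and the 7.90 ± 0.06 of cytTC248 (SD, n = 4 each). Where probes not above background were averaged in as well, the contrasts of 3 of these genes were smaller, at 0.70 for HMGR, 0.57 for les22 and 0.74 for Hm2, and with the processed signal that of Hm2 was 2.47.

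At the other end stood mir2 (GRMZM2G150256), of a family of cysteine proteases known from insect resistance in maize. mir2 had a normalised log2 signal of 11.502, 10.73, 11.74 and 11.55 on the stress arrays of cytTC221, against 8.23, 8.10, 8.13 and 8.30 on its control arrays. TC243 gave 14.51, 14.42, 14.32 and 14.59 under stress, against 9.15, 9.18, 8.95 and 9.14 in the control group, and in cytTC248 the signal was 14.23, 14.44, 14.49 and 14.32, against 9.27, 9.51, 9.43 and 9.48. All lines gained signal, but heated cytTC221 stayed below every heated array of the others, and 1 cytTC221 stress replicate at 10.73 lay apart from the other 3. The contrast was -1.96 ± 0.17, adjusted p = 3.19e-09, a stress to control ratio 3.9 times smaller. Heated cytTC221 was lower by a difference of -3.04 ± 0.12 (adjusted p = 3.73e-15) and the controls were lower too, by -1.07 ± 0.12 (adjusted p = 4.66e-07). Isocitrate lyase (icl1, GRMZM2G056369), an enzyme of the glyoxylate cycle that turns stored fat into sugar precursors, fell in cytTC221, whereas its stress values relative to the control mean were 0.53, 0.25, 0.18 and 0.14 in TC243 and 0.80, 1.09, 1.09 and 0.98 in cytTC248. icl1 had a normalised log2 signal of 7.52, 7.87, 7.86 and 7.69 on the stress arrays of cytTC221, against 8.83, 9.09, 9.01 and 9.001 on its control arrays. TC243 gave 9.04, 8.76, 8.69 and 8.65 under stress, against 8.69, 8.40, 8.60 and 8.36 in the control group, and in cytTC248 the signal was 8.63, 8.93, 8.93 and 8.82, against 7.75, 7.89, 7.90 and 7.78. The 4 heated cytTC221 arrays were the lowest of the heated arrays, and the cytTC221 controls the highest of the controls. The contrast was -1.88 ± 0.12, adjusted p = 2.45e-11, with differences of -1.52 against TC243 (adjusted p = 6.34e-09) and -2.24 against cytTC248 (adjusted p = 4.02e-11). With probes not above background averaged in, it was -0.98.

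The bifunctional lysine degradation enzyme lkrsdh1 (GRMZM2G181362) fell in cytTC221 and rose in both others, with -0.56, -0.76, -0.62 and -0.70 in cytTC221, against 1.17, 1.11, 1.1 and 1.09 in TC243 and 0.35, 0.30, 0.46 and 0.28 in cytTC248 (contrast -1.39 ± 0.10, adjusted p = 1.98e-10). A gene named HRGP (GRMZM2G168651), for hydroxyproline-rich glycoprotein of the cell wall, did the same, with -0.36, -0.41, -0.37 and -0.42 in cytTC221, against 2.17, 1.96, 2.01 and 1.60 in TC243 and 0.72, 0.60, 0.70 and 0.75 in cytTC248 (contrast -1.70 ± 0.13, adjusted p = 4.06e-10). The HRGP signal without heat was 9.16 ± 0.21 in cytTC221, 7.70 ± 0.03 in TC243 and 8.39 ± 0.19 in cytTC248, so the lines stood apart before the heat. The vacuolar membrane aquaporin TIP3-1 (GRMZM2G305446) fell further in cytTC221, with -3.30, -3.19, -3.21 and -2.69 in cytTC221, against -1.47, -1.71, -1.63 and -1.58 in TC243 and -1.45, -1.27, -1.12 and -1.502 in cytTC248 (contrast -1.63 ± 0.13, adjusted p = 1.13e-09), and here the difference lay in the controls, which were higher in cytTC221 by 1.37 ± 0.09 (adjusted p = 1.5e-10), while the heated plants had a difference of -0.26 ± 0.09 (adjusted p = 0.02). The anonymous transcripts GRMZM2G126582 and AY112073 (GRMZM2G306105) had contrasts of -1.78 ± 0.11 and -1.32 ± 0.11, and psiP (GRMZM2G060659) rose by 0.30 in cytTC221, against 1.62 in TC243 and 1.83 in cytTC248. The sizes depended on the setting for 4 of these. With probes not above background averaged in, the contrast of lkrsdh1 was -0.19, that of TIP3-1 -0.91 and that of AY112073 -0.66, and with the processed signal it was -2.47 for TIP3-1 and -2.79 for GRMZM2G126582.

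The calcium-dependent protein kinase CPK39 was measured under 2 gene IDs that match the same RefSeq gene, so they are not 2 independent genes. Under GRMZM2G053868 its stress values relative to the control mean were -1.0, -0.83, -0.87 and -0.97 in cytTC221, against 0.50, 0.49, 0.45 and 0.43 in TC243 and 0.10, 0.31, 0.34 and 0.05 in cytTC248, a fall in cytTC221 and a rise in both others (contrast -1.25 ± 0.08, adjusted p = 3.22e-11). Under GRMZM2G157068 the contrast was -1.39 ± 0.26, adjusted p = 0.000147, with an SE widened by 1 control array of cytTC248 that read 10.01 beside 11.64, 11.43 and 11.56. The protein phosphatase PP2C12 (GRMZM5G818101) rose strongly everywhere but least in cytTC221, with 3.24, 3.44, 3.13 and 3.09 in cytTC221, against 4.85, 4.60, 4.63 and 4.49 in TC243 and 4.05, 4.15, 4.16 and 4.05 in cytTC248 (contrast -1.15 ± 0.10, adjusted p = 6e-09). Igl (GRMZM2G046163), named for the indole-3-glycerol-phosphate lyase that releases indole, rose by 0.24 in cytTC221, against 1.36 in TC243 and 1.61 in cytTC248 (contrast -1.25 ± 0.09, adjusted p = 1.95e-10). The expansin expA4 (GRMZM2G445169), of a family of cell wall loosening proteins, rose with 3.17, 3.23, 3.26 and 3.16 in cytTC221, against 4.45, 4.37, 4.43 and 4.33 in TC243 and 4.08, 4.03, 4.09 and 4.04 in cytTC248 (contrast -1.02 ± 0.07, adjusted p = 1.55e-10). With probes not above background averaged in, the contrast was -0.73 for CPK39 under GRMZM2G157068, -0.63 for PP2C12 and -0.48 for expA4, and with the processed signal that of Igl was -2.12.

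**Figure D3:**
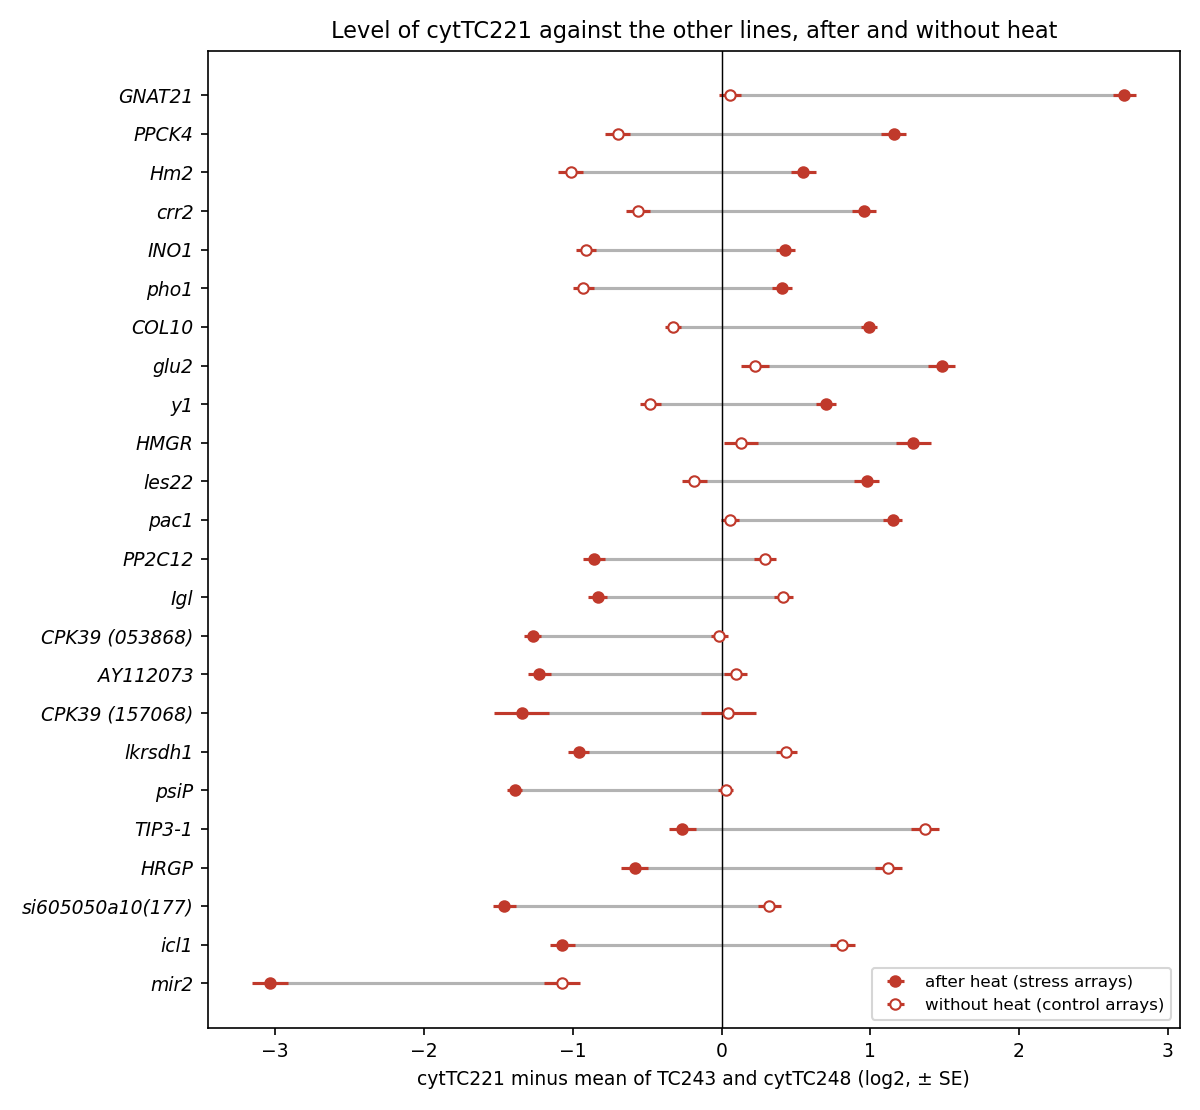
Difference between cytTC221 and the mean of TC243 and cytTC248 (x axis, log2, with SE) on the stress arrays (filled) and on the control arrays (open) for the 24 named genes with the largest contrasts, whose contrast is the gap between both points. GNAT21, pac1, psiP, AY112073 and CPK39 (GRMZM2G053868) differed after heat with control differences between -0.02 and 0.09, whereas TIP3-1 differed mostly without heat.

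Opposite directions in cytTC221 and in both other lines were seen for 15 named genes, 9 that rose and 6 that fell in cytTC221. Of these, 5 risers and all 6 fallers were above background on all arrays with no overlap between the lines. The risers were pac1 (GRMZM2G058432), a regulator of anthocyanin synthesis, at 0.47 in cytTC221, against -0.50 in TC243 and -0.74 in cytTC248, the chloroplast co-chaperonin CHL-CPN10 (GRMZM2G103236) at 0.45 in cytTC221, against -0.24 in TC243 and -0.84 in cytTC248, WRKY29 (GRMZM2G040298) at 0.42 in cytTC221, against -0.41 in TC243 and -0.57 in cytTC248, the plastid protein gene et1 (GRMZM2G157574) at 0.40 in cytTC221, against -0.25 in TC243 and -0.43 in cytTC248, and the ribosomal protein gene rps4 (GRMZM2G035017) at 0.23 in cytTC221, against -0.17 in TC243 and -0.47 in cytTC248. Beside CPK39, lkrsdh1 and HRGP, the fallers were the lipoxygenase lox3, PG14 (GRMZM2G418644), named as a polygalacturonase, at -0.27 in cytTC221, against 0.54 in TC243 and 0.32 in cytTC248, and HST (GRMZM2G113476) at -0.29 in cytTC221, against 0.53 in TC243 and 0.28 in cytTC248. For lox3 (GRMZM2G109130), whose products feed into oxylipin hormones, the stress values relative to the control mean were -0.52, -0.43, -0.38 and -0.56 in cytTC221, against 1.18, 0.98, 0.90 and 1.01 in TC243 and 0.21, 0.43, 0.26 and 0.31 in cytTC248, with a contrast of -1.13 ± 0.08, adjusted p = 8.74e-11, and -1.79 with the processed signal.

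Many nuclear genes of mitochondrial proteins had a higher heat response in cytTC221. All 24 listed members were measured, and 14 were called higher (58.3%) and 0 lower, with a median contrast of 0.44. Of all genes 18.2% were higher, with a median of 0.00. Of all named genes, from which the list was drawn, 25.4% were higher, with a median of 0.08. Relative to the median of all genes the list lay between 0.44 and 0.54 under the 7 scalings and background settings. The number of members called higher was 5 within slides and 10 to 18 in the other settings. Alternative oxidase aox2 (GRMZM2G125669) rose steeply everywhere. It had a normalised log2 signal of 12.71, 12.89, 12.90 and 12.66 on the stress arrays of cytTC221, against 7.73, 7.93, 7.88 and 7.63 on its control arrays. TC243 gave 11.92, 11.85, 11.83 and 12.003 under stress, against 7.72, 7.78, 7.61 and 7.58 in the control group, and in cytTC248 the signal was 11.77, 11.72, 11.88 and 11.77, against 7.51, 7.78, 7.65 and 7.67. The control arrays of the 3 lines overlapped, and heated cytTC221 was above all other heated arrays. The contrast was 0.82 ± 0.09, adjusted p = 1.7e-07, with differences of 0.77 against TC243 (adjusted p = 3.13e-06) and 0.87 against cytTC248 (adjusted p = 9.7e-07). The related aox3 (GRMZM2G074743) was not distinct. Its stress values relative to the control mean were 4.72, 5.09, 5.05 and 4.91 in cytTC221, against 4.98, 4.76, 4.67 and 5.03 in TC243 and 3.80, 4.04, 4.04 and 4.01 in cytTC248, with a contrast of 0.52 ± 0.14, adjusted p = 0.00292, and the difference from TC243 was 0.08 ± 0.16 (adjusted p = 0.703). The contrast of aox3 missed the threshold with the processed signal (adjusted p = 0.0388), with its brightest probe (adjusted p = 0.017) and within slides (adjusted p = 0.0255), and was 0.81 with arrays centred on the median gene.

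The prohibitin gene phb2 (GRMZM2G107114), of the scaffold complex of the inner mitochondrial membrane, rose by 4.01, 4.33, 4.35 and 4.22 in cytTC221, against 3.58, 3.40, 3.49 and 3.54 in TC243 and 3.31, 3.58, 3.57 and 3.39 in cytTC248 (contrast 0.75 ± 0.09, adjusted p = 6.78e-07). Its relatives phb1 and phb3 had contrasts of 0.55 and 0.41, both called higher. The mitochondrial superoxide dismutase sod3 (GRMZM2G059991), which removes superoxide, fell less in cytTC221, with -0.99, -0.74, -0.93 and -0.98 in cytTC221, against -1.49, -1.66, -1.78 and -1.52 in TC243 and -1.99, -1.81, -1.90 and -1.85 in cytTC248 (contrast 0.84 ± 0.09, adjusted p = 1.68e-07). The outer membrane channel genes vdac2 and vdac1b had contrasts of 0.68 and 0.50, the adenine nucleotide carriers ANT1 and ANT-G2 0.47 and 0.35, and the pyruvate dehydrogenase gene pdh2 0.61. Also distinct was the elongation factor gene EF-Ts at 0.58, whose responses were 0.44 in cytTC221, against 0.00 in TC243 and -0.29 in cytTC248. Of the list, 16 members were above background on all arrays, and 12 had cytTC221 responses above all those of the other lines, which was true of 17.9% of all genes tested.

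Genes for handling organelle transcripts also had more higher than lower calls. So had all named genes, with 25.4% higher and 15.8% lower and a median contrast of 0.08. Pentatricopeptide repeat proteins bind organelle RNAs for splicing, editing and stability, and mTERF proteins act on transcription and RNA in organelles. Of 17 measured members of 19 listed, 10 were called higher and 1 lower (PPR8522 at -0.32), with a median contrast of 0.35. The number called higher was 3 within slides and with the 75th percentile over spots above background, 5 with probes above background on all arrays, and 8 to 11 otherwise. Examples were mTRF16 at 0.69, mTRF21 at 0.60, ppr2 at 0.55 and crp1 at 0.35, the last a protein for chloroplast cytochrome and photosystem I messages. MTERF4 (GRMZM2G029933) had a contrast of 0.62 ± 0.09, adjusted p = 7.27e-06 as the mean of its 3 probes, which disagreed, with probe values of 0.92, -0.20 and 1.14. Within slides MTERF4, mTRF21 and crp1 kept their sign and missed the threshold (adjusted p = 0.024, 0.168 and 0.118). The contrast of crp1 was 0.63 with centred arrays, and that of MTERF4 0.41 with the 75th percentile over spots above background. In the list for plastid gene expression 8 of 21 were called higher and 1 lower (median 0.11), and 2 to 10 were higher over the alternatives. WTF1 (GRMZM2G403797), needed for splicing of chloroplast introns, rose by 3.55 in cytTC221, against 2.88 in TC243 and 2.69 in cytTC248 (contrast 0.76 ± 0.08, adjusted p = 3.57e-08), CFM3 and a CFM2 gene (GRMZM2G094072) of the same process had contrasts of 0.68 and 0.44 (0.71 with centred arrays for the CFM2 gene, and no call within slides, adjusted p = 0.0297), and the chloroplast splicing factor CRS2 was lower at -0.65. Ribosomal proteins had 13 of 31 higher and 3 lower (median 0.24), and 6 to 19 were higher over the alternatives. The acidic stalk proteins rpp2a-4 and rpp2a-3 had contrasts of 1.01 ± 0.10 and 0.95 ± 0.08, and rpp1a 0.82 ± 0.09, whereas RPL10 (GRMZM2G088005) was lower at -0.95. With probes not above background averaged in, rpp1a was at 0.33 and missed the threshold (adjusted p = 0.0778). Relative to all genes, the medians of these 3 lists stayed above 0 in all 7 settings. Called higher were 58.8% of the repeat and mTERF list, 38.1% of the plastid list and 41.9% of the ribosomal list. The median of the plastid list was close to that of all named genes.

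All 15 measured heat shock proteins, of 16 listed, rose in cytTC221, and their contrasts went both ways. Of these, 3 were called higher and 7 lower, where 18.2% of all genes were higher and 20.8% lower, with a median of -0.27 and a median relative to all genes between -0.27 and -0.13 in the 7 settings. Against TC243 alone the median was -0.31 and against cytTC248 alone -0.03, and 3 members were distinct lower. The balance depended on the scaling, with 5 higher and 1 lower in centred arrays, 4 and 2 under scaling to the 75th percentile of all maize spots, 1 and 1 within slides, 2 and 2 with probes above background on all arrays, and 1 to 3 higher and 5 to 7 lower otherwise. The small heat shock proteins hsp18f and hsp18c and the disaggregating chaperone hsp101 were not above background on all arrays, so that their responses start from signals near background and only levels after heat are given. The level of hsp18f was 9.47 ± 0.08 in heated cytTC221, against 10.40 ± 0.09 in TC243 and 10.23 ± 0.04 in cytTC248 (SD, n = 4 each), that of hsp18c 14.26 ± 0.09 in heated cytTC221, against 14.55 ± 0.07 in TC243 and 14.68 ± 0.07 in cytTC248, and that of hsp101 12.96 ± 0.12 in heated cytTC221, against 13.55 ± 0.15 in TC243 and 13.51 ± 0.07 in cytTC248. Heated cytTC221 was the lowest of the lines for all 3, by a difference from the mean of the others of -0.85 ± 0.05 (adjusted p = 1.95e-12) for hsp18f, -0.36 ± 0.06 (adjusted p = 9.3e-06) for hsp18c and -0.57 ± 0.06 (adjusted p = 3.86e-08) for hsp101. HSP90-1 had a contrast of 0.68, with responses of 4.73 in cytTC221, against 4.60 in TC243 and 3.50 in cytTC248, and its difference from TC243 alone was 0.14 (adjusted p = 0.305). Among 10 heat stress transcription factors 2 were higher and 4 lower, and the sign of their median relative to all genes changed with the scaling. Hsf26, also not above background on all arrays, reached 7.28 ± 0.09 in heated cytTC221, against 8.57 ± 0.09 in TC243 and 8.26 ± 0.12 in cytTC248, a difference of -1.13 ± 0.06 (adjusted p = 2.95e-13) after heat. In the list for protein folding and degradation at the endoplasmic reticulum 0 of 18 were higher and 6 lower, among them bip2 at -0.27, the calnexin CNX at -0.42 and the disulfide isomerase pdi11 at -0.33, of which pdi11 alone was distinct from both lines. The median of that list was -0.21 against TC243 and 0.02 against cytTC248. In that list 0 were lower with centred arrays, under scaling to the 75th percentile of all maize spots and within slides, 3 with the processed signal and 5 or 6 otherwise, and 0 to 3 were higher over the alternatives.

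Several transcripts of light harvesting fell further in cytTC221. Of 6 measured chlorophyll a/b binding proteins, which carry the antenna pigments, 3 were called lower and 1 higher (contrast 0.36), with a median of -0.40. Over the alternatives 1 to 4 were lower. Of all genes 20.8% were lower and 18.2% higher, and of all named genes 15.8% and 25.4%. The antenna gene lhcb6 (GRMZM2G092427) fell by 7.90, 7.57, 7.61 and 7.82 in cytTC221, against falls of 6.92, 6.77, 6.72 and 6.99 in TC243 and 7.38, 6.97, 7.08 and 7.43 in cytTC248 (contrast -0.69 ± 0.13, adjusted p = 0.000128). With arrays centred on the median gene, lhcb6 and rca1 were at -0.42 and -0.34 and missed the threshold (adjusted p = 0.019 and 0.0194). Within slides lhcb6, rca1, PSA2, psbs1 and the Rubisco small subunit gene GRMZM2G098520 kept their sign and missed it (adjusted p = 0.0258, 0.0139, 0.0139, 0.0164 and 0.0572), and with the brightest probe so did PPDK and rca1 (adjusted p = 0.0142 and 0.0104). Photosystem genes were divided. PSA2 (GRMZM2G021687), an assembly factor of photosystem I, fell less, at -1.38 in cytTC221, against -2.79 in TC243 and -2.04 in cytTC248 (contrast 1.03 ± 0.12, adjusted p = 3.3e-07), and psbs1, the sensor of photoprotective quenching, and psaN fell further, with contrasts of -0.68 and -0.72, or -0.38 and -0.43 with centred arrays. Among 16 Calvin cycle and C4 genes, 2 were higher (12.5%) and 3 lower (18.8%), which is near the shares of all genes, with a median of -0.26. The Rubisco activase gene rca1 (GRMZM2G162200) fell further, at -5.78 in cytTC221, against -5.03 in TC243 and -5.28 in cytTC248 (contrast -0.63 ± 0.12, adjusted p = 0.000184), and rca3 rose less, with a contrast of -0.84. Of both, rca1 alone was distinct from both lines. A PPDK gene (GRMZM2G097457) and a Rubisco small subunit gene (GRMZM2G098520) had contrasts of 0.73 and 0.73, or 0.40 and 0.35 with probes not above background averaged in. The PPDK gene also bears the names CYPPDKZM2 and PPDK2, so it may not be the PPDK of the C4 cycle. This small subunit gene averaged 8.14 in unheated cytTC221, and another small subunit gene (GRMZM2G113033), at 15.01 there by its own probe, had a contrast of 0.25 ± 0.18, adjusted p = 0.264.

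Of 7 genes of chlorophyll and carotenoid synthesis 3 were higher and 0 lower (median 0.23), where 25.4% of all named genes were higher. Beside y1 these were the second phytoene synthase psy2 at 0.35 and ChlI (GRMZM2G419806), a subunit of the magnesium chelatase of chlorophyll synthesis, at 0.54 ± 0.09. Flavonoid and anthocyanin synthesis had 4 of 9 higher and 0 lower (median 0.26), with dihydroflavonol reductase dfr1 (GRMZM2G004683) rising by 1.36, 1.42, 1.39 and 1.38 in cytTC221, against 0.80, 0.55, 0.58 and 0.75 in TC243 and 0.83, 0.94, 0.86 and 0.97 in cytTC248 (contrast 0.60 ± 0.07, adjusted p = 2.94e-07) and the glucosyltransferase bronze1 at 0.52. Within slides ChlI and bronze1 kept their sign and missed the threshold (adjusted p = 0.0214 and 0.0603), 1 member of each list was called higher, and with the 75th percentile over spots above background 1 of the flavonoid list was, bronze1 being at 0.22 there. The medians of both lists stayed above that of all genes in the 7 settings. For the flavonoid list the median was 0.45 against TC243 and 0.05 against cytTC248, and 2 members were distinct higher. The regulator pac1 of the same pathway was described above.

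Of 13 antioxidant enzymes 4 were higher and 3 lower, beside 25.4% and 15.8% of all named genes, and 1 to 8 were higher over the alternatives. The higher ones included sod3, the superoxide dismutase sod2 at 0.51 and the glutathione reductase gor1 at 0.46. The dehydroascorbate reductase gene dhar4 (GRMZM5G826194), of the enzymes that recycle vitamin C, fell in cytTC221, with -0.99, -1.05, -0.80 and -0.89 in cytTC221, against 0.05, 0.01, 0.04 and 0.32 in TC243 and 0.24, 0.43, 0.16 and 0.28 in cytTC248 (contrast -1.13 ± 0.09, adjusted p = 1.88e-09). Its heated level was 7.96 ± 0.11 in cytTC221, against 9.75 ± 0.15 in TC243 and 9.10 ± 0.11 in cytTC248 (SD, n = 4 each). With probes not above background averaged in, the contrast of dhar4 was -0.45. The related dhar2 and the catalase cat2 were lower at -0.48 and -0.51, the call of cat2 being lost with centred arrays (adjusted p = 0.0924) and under scaling to the 75th percentile of all maize spots (adjusted p = 0.0335). Among 40 genes of lipoxygenases and jasmonate, a wound and defence hormone, 7 were higher and 10 lower. The steps of its synthesis named lox3, aos1 (allene oxide synthase) and opr2 (an oxophytodienoate reductase) were distinct in the lower direction, at -1.13, -0.79 and -1.05, as was TIFY28 of the repressor family, at -1.53 with responses of 2.76 in cytTC221, against 4.70 in TC243 and 3.87 in cytTC248. On the higher side were ts1, a lipoxygenase known from tassel development, at 0.74, the allene oxide cyclase aoc2 at 0.43 and TIFY4 at 0.53, or 0.83 with centred arrays and without a call within slides (adjusted p = 0.0126). Of these, aos1, opr2 and TIFY28 were not above background on all arrays.

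NAC transcription factors, many of which respond to stress, had 7 of 18 lower and 2 higher (median -0.18), and 2 to 8 were lower over the alternatives. Their median was -0.32 against TC243 and 0.09 against cytTC248, so the lower median was not shared by both comparisons. A gene named NAC1 (GRMZM2G014653) rose by 2.74 in cytTC221, against 3.51 in TC243 and 3.43 in cytTC248 (contrast -0.73 ± 0.08, adjusted p = 4.9e-08). NAC75 averaged -0.57, but its 3 probes disagreed, at -1.19, -1.01 and 0.48, and with the brightest probe alone the contrast was 0.48 (adjusted p = 0.00226). The WRKY factors had 4 of 16 higher and 4 lower, and the sign of their median relative to all genes changed with the scaling. WRKY29 was highest, with 0.27, 0.57, 0.49 and 0.35 in cytTC221, against -0.36, -0.49, -0.37 and -0.43 in TC243 and -0.75, -0.55, -0.39 and -0.61 in cytTC248 (contrast 0.91 ± 0.09, adjusted p = 5.31e-08), and WRKY116 was lower at -0.63, or -0.36 with centred arrays and without a call within slides (adjusted p = 0.0355). Benzoxazinoids, the maize defence compounds, had 4 of 10 higher and 1 lower. The dioxygenase bx6 (GRMZM6G617209) fell by 5.13 in cytTC221, against 5.70 in TC243 and 6.30 in cytTC248 (contrast 0.87 ± 0.13, adjusted p = 1.07e-05), and Igl was the lower member. The other lists of regulators had more higher than lower calls, with 8 and 3 of 26 bZIP factors, 10 and 7 of 39 MYB factors, and 9 and 6 of 25 ethylene response and DREB factors. These shares stand beside 25.4% higher and 15.8% lower among all named genes.

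**Figure D4:**
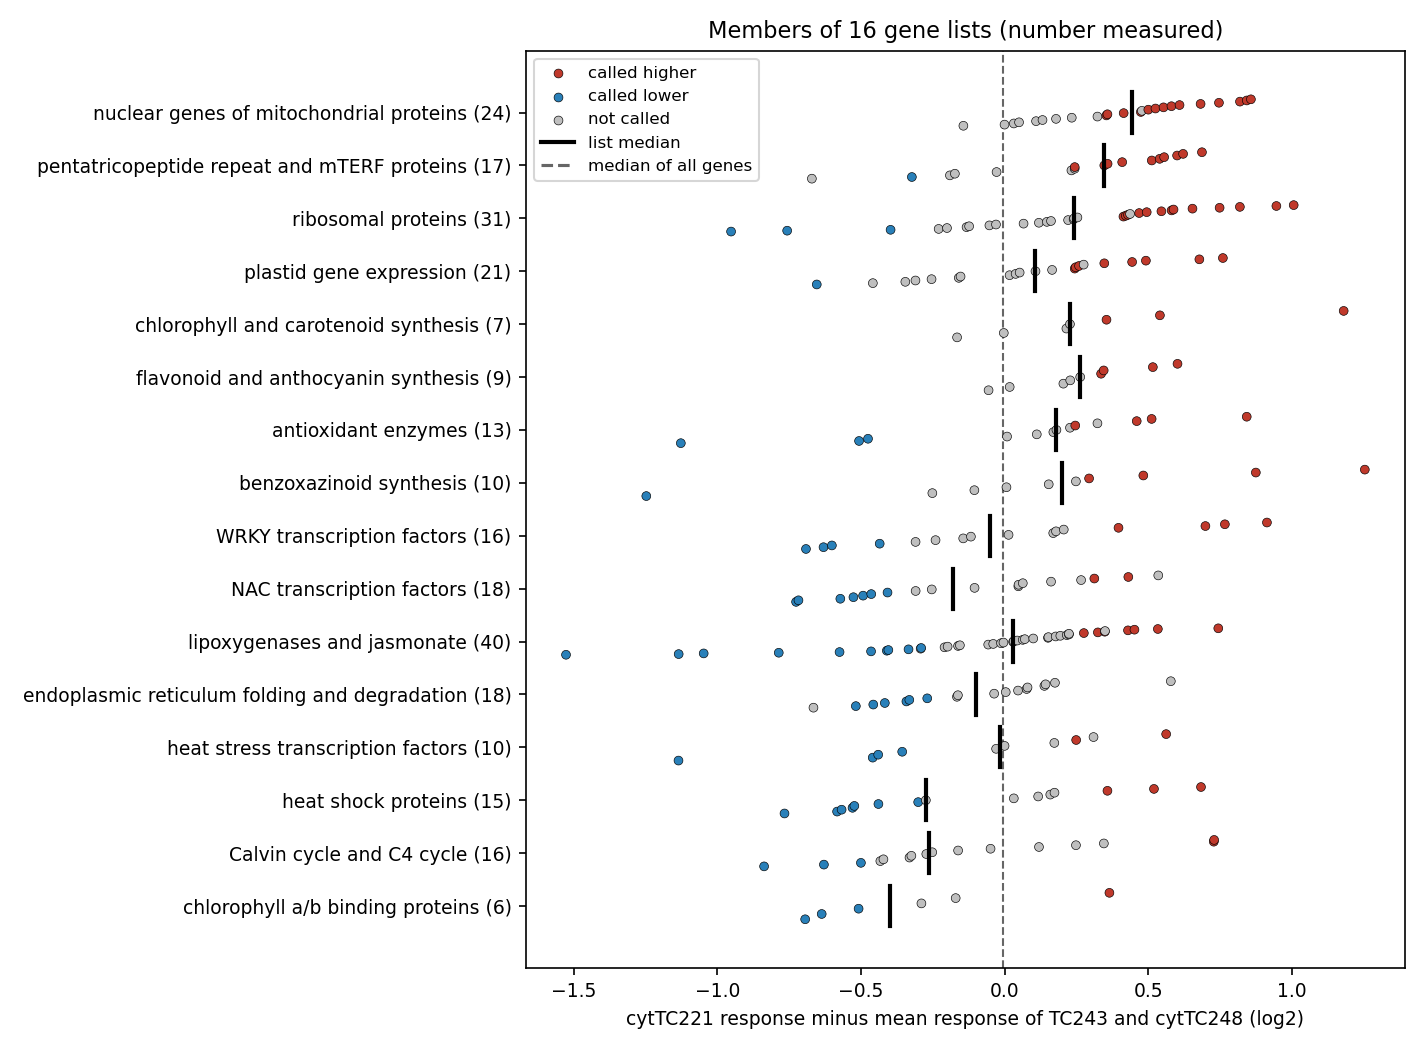
Contrast of every measured member (points, x axis, log2) of 16 gene lists (rows, number measured in brackets), red for members called higher, blue for lower and grey for no call, with the list median as a black bar and the median of all genes as a dashed line. The median of the nuclear genes of mitochondrial proteins lies at 0.44 and that of the chlorophyll a/b binding proteins at -0.40.

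**Figure D5:**
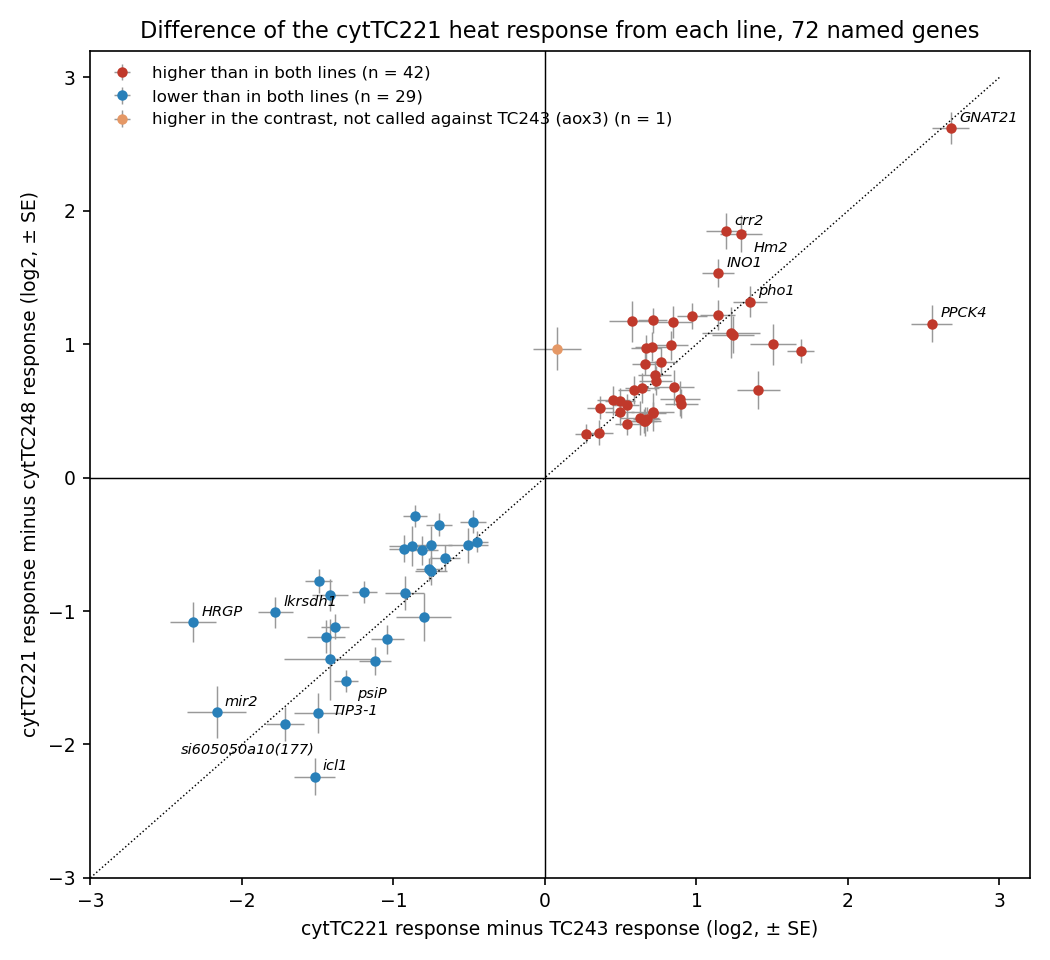
Difference of the cytTC221 heat response from that of cytTC248 (y axis, log2, with SE) against its difference from TC243 (x axis) for the 72 named genes, with a dotted line of equal difference. The 42 distinct higher and 29 distinct lower genes fill opposite quadrants by their definition, and aox3 lies at 0.08 on the x axis and 0.97 on the y axis.

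PPCK4 and HRGP departed most from the line of equal difference in the plot of both separate comparisons. For PPCK4 the difference was 2.55 from TC243 and 1.15 from cytTC248, and for HRGP -2.32 and -1.08. For GNAT21 and pho1 the 2 differences were 2.68 and 2.62, and 1.35 and 1.32.

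Markers of cell types were examined beside these results, since leaves and stems were harvested together. The 4 mesophyll and 4 bundle sheath markers were all measured, among them the C4 enzyme pep1, whose signal fell by 6.79 in cytTC221, against 6.39 in TC243 and 6.32 in cytTC248. No mesophyll marker and 1 bundle sheath marker, the small subunit gene GRMZM2G098520, had a contrast past the threshold. The mean signal of the mesophyll markers ranged from 9.97 to 10.25 on the heated arrays of cytTC221, from 10.07 to 10.47 on those of TC243 and from 10.06 to 10.53 on those of cytTC248. That of the bundle sheath markers was 9.29 to 9.64 on heated cytTC221 arrays, above the 9.08 to 9.26 of TC243 and overlapping the 9.32 to 9.40 of cytTC248. Of 12 markers of stem and meristem 2 were measured, the homeobox genes knox6 and knox7, and their mean was 8.18 to 8.39 on heated cytTC221 arrays, against 7.79 to 7.85 in TC243 and 7.86 to 8.00 in cytTC248, with knox7 called higher at 0.48. Of 13 markers of dividing cells 5 were measured, with means of 8.83 to 9.08 on heated cytTC221 arrays, against 9.30 to 9.39 in TC243 and 9.18 to 9.28 in cytTC248. The lower mean went with cyclin4, whose responses were 1.18 in cytTC221, against 3.49 in TC243 and 2.57 in cytTC248. Of these 5 markers 2 were above background on all arrays. The gene cyclin4 was not among them, so its responses may start from signals near background. One of 29 endosperm storage protein genes was measured, z1C1_2, a zein, with a contrast of -0.92. The part of bundle sheath, of stem and of dividing cells in the contrast was not tested.

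Some genes lay on 1 side of the array's background in cytTC221 and on the other side in both other lines. In the heated plants, 193 of the 48216 tested genes were well above background on all 4 cytTC221 arrays and on none of the 8 other arrays. This first set held 101 distinct higher and 13 distinct lower genes. A second set of 504 genes was the other way round, with 3 distinct higher and 389 distinct lower. Over all genes 10.2% were distinct higher and 13% distinct lower. The sets were picked by heated signals that also enter the contrast, so their excess of such calls follows in part from the choice. CYP714B3 of the first set and LOB21 of the second had no call, with contrasts of 0.07 and 0.01, so membership alone does not mean a difference in heat response. The chitinase gene chiB (GRMZM2G005633), of enzymes that attack fungal cell walls, was in the second set. Its mean signal was 6.19 ± 0.10 on heated cytTC221 arrays, where it was not well above background, against 7.19 ± 0.26 in TC243 and 7.74 ± 0.29 in cytTC248 (SD, n = 4 each), at least 2.33-fold higher in the mean of the heated plants of both other lines. MYBR47 and Myb33 were at least 1.76-fold and 1.53-fold higher in that mean. In the first set, MYB34, BIF4 and ARGOS5 were at least 1.58-fold, 1.42-fold and 1.41-fold higher in heated cytTC221 than in that mean. The signal of each of them fell with heat in all 3 lines. For these bounds the dim group was set, array by array, to its measured signal or to the faintest signal that cleared the background, whichever was higher.

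Larger contrasts than those of the named genes belonged to gene IDs without a name in the tables used here, of which the extreme pair in each direction, among genes above background on all arrays, was picked after the values were seen. GRMZM2G086179 averaged 11.13 ± 0.06 on stress and 8.997 ± 0.32 on control arrays of cytTC221, against 8.38 ± 0.18 and 12.71 ± 0.06 in TC243 and 11.05 ± 0.14 and 13.18 ± 0.21 in cytTC248 (SD, n = 4 each), a rise in cytTC221 beside falls in both others (contrast 5.37 ± 0.15, adjusted p = 2.6e-16). GRMZM2G141320 averaged 11.22 ± 0.14 on stress and 9.08 ± 0.22 on control arrays of cytTC221, against 8.10 ± 0.17 and 11.19 ± 0.22 in TC243 and 11.21 ± 0.13 and 11.37 ± 0.32 in cytTC248 (contrast 3.77 ± 0.17, adjusted p = 1.6e-13). In both genes the larger part of the contrast lay in the controls. Unheated cytTC221 differed from the mean of the other lines by -3.95 in GRMZM2G086179 and -2.20 in GRMZM2G141320, and heated cytTC221 by 1.42 and 1.57. The heated level of cytTC221 was close to that of cytTC248 in both. Among the lower ones, GRMZM2G591489 averaged 10.14 ± 0.48 on stress and 8.62 ± 0.10 on control arrays of cytTC221, against 13.42 ± 0.26 and 7.97 ± 0.19 in TC243 and 12.34 ± 0.11 and 8.05 ± 0.03 in cytTC248 (contrast -3.35 ± 0.20, adjusted p = 9.15e-12), and GRMZM2G540356 averaged 8.74 ± 1.099 on stress and 8.44 ± 0.16 on control arrays of cytTC221, against 12.02 ± 0.74 and 8.08 ± 0.30 in TC243 and 11.18 ± 0.41 and 8.19 ± 0.18 in cytTC248 (contrast -3.17 ± 0.47, adjusted p = 7.29e-06). Both rose in TC243 and cytTC248 by over 2 log2 units, and by less in cytTC221, where GRMZM2G540356 had a response of 0.29 (adjusted p = 0.488).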

How the data were processed

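RNA of 24 seedling samples was labelled with Cy3 and hybridised to 1-colour Agilent arrays of a custom maize design. The deposited scanner files hold spot intensity and local background, extracted by the authors with Agilent Feature Extraction (version 11 per the labels, 11.5.1.1 per the file headers). The deposited value table holds log2 median intensity, which the authors had quantile normalised within each line, and served as an alternative (r with the log2 median signal at least 0.998).

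From the scanner files, outlier-marked spots (0 to 45 per array) were left out, no spot was saturated, and the median signal was background corrected (normexp, offset 50) and quantile normalised over all arrays in limma 3.58.1 (R 4.3.3, data.table version 1.17.8). Of 133671 probes, the 64428 that cleared the background on every array of 1 or more groups entered and were averaged per gene ID. Quantile scaling equalises the arrays' distributions, so a shift of most genes in 1 line would be removed. One limma fit with 6 groups gave all contrasts, adjusted by Benjamini-Hochberg over 48216 genes. The number of arrays limits the precision. Alternatives covered scaling, background, filter, probe choice, slide, replicate number, within-slide differences, threshold and each array left out.

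Groups came from the sample titles. The source names of cytTC221 control replicates 3 and 4 both say replicate 2. Gene IDs were named through RefSeq (assembly Zm-B73-REFERENCE-NAM-5.0): 18296 of 107027 matched 1 gene, 522 matched several and were left unnamed, and 2620 had a name. Named genes were distinct from both lines and above background on all arrays by all probes: the 12 largest in each direction, which also had no overlap of responses and were called with the 75th percentile scaling over spots above background and the processed signal, and up to 3 per gene list. Both alternative oxidases were named whatever their values. Other list members are given by value. Members and lists were chosen with earlier results of these data known, and list members were picked by gene symbol once the available names were seen. Genes of the organelle genomes were not analysed here. Probes of near-identical family members (Rubisco small subunits, zeins, small heat shock proteins) may bind each other's transcripts, which was not tested.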

Additional observations from a re-analysis of the deposited data

Results flagged for a closer look

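The heat response of cytTC221 differed from the mean of the other lines by the interaction test itself, for 8773 genes in the higher and 10034 in the lower direction, and from each of the other lines separately for 4894 and 6269 of these. The responses of cytTC248 and TC243 differed from each other for 6781 genes.

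Among the 72 named genes, 24 of 432 sets of 4 replicates held an array far from the other 3, judged by the gap relative to the whole range, and chance marks about 1 in 20 such sets. Most of these gaps were small, since the other replicates lay close together. In unheated cytTC248, Hm2 (GRMZM2G131243) read 7.82 on replicate 1 and 7.93 to 7.94 on the others, crr2 (GRMZM2G392101) read 9.65 on replicate 3 and 9.85 to 9.86 on the others, y1 (GRMZM2G300348) read 12.83 on replicate 3 and 12.96 to 12.98 on the others, CPK39 (GRMZM2G157068) read 10.01 on replicate 1 and 11.43 to 11.64 on the others, AY112073 (GRMZM2G306105) read 15.12 on replicate 2 and 15.33 to 15.35 on the others, NAC75 (GRMZM2G100583) read 8.83 on replicate 2 and 8.999 to 9.03 on the others, bHLH145 (GRMZM2G472671) read 11.68 on replicate 3 and 11.54 to 11.55 on the others, and crp1 (GRMZM2G083950) read 10.24 on replicate 2 and 10.18 to 10.19 on the others. In heated TC243, COL10 (GRMZM2G012717) read 6.98 on replicate 3 and 7.14 to 7.17 on the others, dhar4 (GRMZM5G826194) read 9.97 on replicate 4 and 9.65 to 9.69 on the others, and bx6 (GRMZM6G617209) read 9.59 on replicate 2 and 9.78 to 9.81 on the others. In unheated cytTC221, pac1 (GRMZM2G058432) read 7.95 on replicate 3 and 8.02 on the others, psiP (GRMZM2G060659) read 8.44 on replicate 4 and 8.61 to 8.63 on the others, CPK39 (GRMZM2G157068) read 11.20 on replicate 1 and 11.31 to 11.32 on the others, and hon101 (GRMZM2G080274) read 12.39 on replicate 2 and 12.58 to 12.59 on the others. In unheated TC243, CPK39 (GRMZM2G157068) read 11.25 on replicate 3 and 11.35 to 11.36 on the others, WRKY116 (GRMZM2G130854) read 10.03 on replicate 4 and 10.22 to 10.25 on the others, z1C1_2 (GRMZM2G388461) read 9.67 on replicate 3 and 10.04 to 10.10 on the others, EREB156 (GRMZM2G421033) read 11.76 on replicate 1 and 11.55 to 11.57 on the others, and mTRF21 (GRMZM2G159766) read 8.27 on replicate 1 and 8.57 to 8.60 on the others. In heated cytTC248, PYL10 (GRMZM2G063882) read 11.30 on replicate 2 and 11.35 to 11.36 on the others, and aox3 (GRMZM2G074743) read 11.86 on replicate 1 and 12.07 to 12.10 on the others. In heated cytTC221, z1C1_2 (GRMZM2G388461) read 11.22 on replicate 1 and 10.77 to 10.83 on the others, and TIFY4 (GRMZM2G445634) read 11.62 on replicate 2 and 11.42 to 11.44 on the others.

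The widest gap was that of CPK39 (GRMZM2G157068) in unheated cytTC248. The other gene ID of CPK39, GRMZM2G053868, read 11.42 on the same array.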

How the results depend on the processing

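The direction of the named genes was stable, in part through how they were chosen, and the counts of calls were not. Over 2808 refits of the 72 named genes, 2764 kept direction and call, 42 kept the direction and missed the threshold (24 of them within slides) and 2 changed sign, both with the brightest probe alone: NAC75 at 0.48 (adjusted p = 0.00226) and MTERF4 at -0.20 (adjusted p = 0.081). All 1728 refits that left out 1 array kept direction and call, and each shared its other arrays with the full fit. All 72 genes had every probe above background on all arrays and a RefSeq match. Refits limited to such probes or such genes, with 72 of 72 kept in each, were thus no separate check. The genes with the largest contrasts were also chosen as called under the 75th percentile over spots above background and the processed signal. The size of the contrast moved by over 1.5 times for 40 of the 72 under 1 or more other settings, most often with centred arrays (9 smaller, 7 larger) and without the filter on dim probes (14 smaller).

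With the 75th percentile over spots above background on all arrays, 4468 genes were higher in the contrast and 2125 were distinct higher, 6438 were higher in heated cytTC221 and 1898 lower in unheated cytTC221. Centring on the median gene gave 6672 lower in the contrast, the processed signal 1929 lower without heat, and the deposited value table, normalised within each line, 4701 higher and 1970 lower without heat. With probes above background on all 24 arrays, where fewer genes were tested, the contrast had 4898 lower genes, 2955 of them distinct, with 6533 lower after heat and 1823 higher and 1840 lower without heat. From the 6 within-slide differences alone, the contrast had 2710 higher and 4789 lower genes, and 881 and 2284 were distinct. An adjusted p under 0.05 gave 4715 lower without heat. Requiring a difference over 1 as well left 742 higher and 2741 lower in the contrast, 606 and 2593 distinct, 713 and 2085 after heat and 501 and 173 without heat. With genes of 1 RefSeq gene only, a setting chosen after seeing the data, the counts were 4208 higher and 1765 lower, 2612 and 901 distinct, 5005 and 2268 after heat and 1123 and 1384 without heat. Beyond the smaller number of genes or arrays named, the cause of these shifts was not tested.

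Leaving out each array in turn gave 8121 to 8839 higher and 9225 to 10076 lower in the contrast, 4479 to 4905 and 5750 to 6337 distinct, 9826 to 10749 and 11470 to 12472 after heat, and 2397 to 2929 and 2368 to 3056 without heat. The share of distinct calls that were higher was 43.8%, against 21.8% with the 75th percentile over spots above background, 62.2% with centred arrays, 32.3% with the processed signal and 27.8% within slides. Of 60 pairs of same-numbered arrays 9 correlated above 0.1, among them all 4 of heated cytTC221 with heated cytTC248, which lay on the same slides (0.127 to 0.261), while heated cytTC221 and heated TC243 gave -0.174 to -0.129. The numbers were thus not paired across all groups, and a replicate block gave 8646 higher and 9876 lower, 4806 and 6211 distinct. Slide as a fixed block gave 7914 and 9586, and steps of array position as covariates, added after seeing the data, 9132 and 10347.

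Of the 48216 genes, 24733 had all probes above background on all arrays, and for the others a signal near background limits what a response can show. From the dimmest to the brightest of 5 bins, 34.7%, 38.3%, 45%, 42.3% and 34.8% of the genes were called. In simulated data for this contrast, 35 of 80 genes changed by 0.5, 72 of 80 changed by 1 and 39 of 40 changed by 2 on the log2 scale were recovered among 48216 genes. Only these genes differed in heat response there, far fewer than were called in the real data. The adjusted threshold was thus stricter, and these rates are not those of the real calls.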

Other observations

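The gene lists not described above had the following counts in the contrast. Of 19 measured glutathione S-transferases, which attach glutathione to toxic compounds, 6 were higher and 2 lower, and of 20 aquaporins 5 were higher and 3 lower. Among 17 expansins and cellulose synthases 3 were higher and 5 lower, among 18 dehydrins, LEA proteins and genes of abscisic acid signalling 5 and 2, among 28 bHLH factors 5 and 1, among 8 histones 2 and 1, among 7 genes of phytochromes, PIF and the clock 1 and 2, and among 7 cyclins, kinases and replication genes 3 and 1. Of all genes tested, 39% were called in either direction. Without heat, 124 of the 48216 tested genes were well above background on all cytTC221 arrays and on none of the 8 other control arrays. Of these, 7 were distinct higher and 63 distinct lower. Another 57 genes were the other way round, with 33 distinct higher and 6 distinct lower. Over all genes 10.2% were distinct higher and 13% distinct lower. The control signals that picked these sets also enter the contrast, with a minus sign, so the excess follows in part from the choice.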
